A study of Homo sapiens with 16 samples.

Results

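The regions described here are stretches of the human genome where TOP2A-bound DNA piled up both in vehicle-treated K562 cells and after at least 3 of 4 TOP2 poisons. They were found by merging the 5 deposited lists of TOP2A cleavage cluster regions on chromosomes 1 to 22 wherever entries overlapped by 1 bp or more. A merged region was kept when it held an entry of the DMSO list and entries of 3 or 4 of the etoposide, genistein, mitoxantrone and p-benzoquinone lists. Members were thus chosen by the presence of entries in the deposited lists, with no use of their scores. This gave 1336 regions (called the recurrent regions) of 1234830 merged regions, or 0.108%, and of 296415 that held a DMSO entry. They contained 5605 of the 1416969 list entries and covered 624 kb in all.

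All groups are K562, 1 established human line from chronic myeloid leukaemia with a BCR-ABL1 fusion. Cells were lysed, TOP2A was captured with an antibody, and the DNA bound to it was released and sequenced. Exposure lasted 1 h for 25 µM etoposide, 50 µM genistein and 2 µM mitoxantrone, and 4 h for 8 µM p-benzoquinone, with 0.05% DMSO as vehicle in every group. The vehicle was given for 1 or 4 h, and the labels do not say which for each library, so exposure times cannot be matched between vehicle and poison. There were 3 pre-amplified libraries of DMSO, 3 of etoposide, 2 each of genistein and p-benzoquinone and 1 of mitoxantrone. The series also has 1 unamplified library each of DMSO, etoposide and p-benzoquinone, and 1 amplified and 1 unamplified library of input DNA. Each treatment has 1 deposited list, taken here as that of its pre-amplified libraries. A region therefore has no replicate value, no p-value is given between treatments, and the depth of each library is unknown. As a check of the cell line, the CDKN2A and CDKN2B locus, which K562 is known to have lost, held 0 or 1 entries per list with 100 kb on each side, where the mean density of chromosome 9 would give 11.7 to 26.1.

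DNA topoisomerase II alpha (TOP2A) passes a DNA duplex through a transient double-strand cut that it holds by covalent bonds to the DNA ends. This relieves supercoils and untangles sister chromatids, and the enzyme is abundant in dividing cells. Etoposide and mitoxantrone are cancer drugs that hold the cut complex open, genistein is a soy isoflavone with the same activity, and p-benzoquinone is a benzene metabolite that reacts covalently with the enzyme.

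Sequence was taken from RefSeq (GRCh38.p14) for the few recurrent regions that reached a gene start. Of the 1336 recurrent regions 11 touched a promoter window, defined as 250 bases before to 50 after the start that RefSeq gives for a gene. This was 0.823% (exact 95% interval 0.412 to 1.47) against 0.497% of all merged regions, a value that the interval includes. Wider regions touch more windows by construction, and regions of vehicle and 2 poisons were at 0.767%. In 4 of the 11 windows entries of at least 3 lists lay over the same base. They are shown because part of a shared stretch can be read there as sequence. The 250 bases before each start are printed 5′ to 3′ on the gene's strand, with capitals where entries of at least 2 lists overlapped. DOK4, on chr16:57487323-57487572 (minus strand), encodes a docking protein of receptor tyrosine kinases. HTR5A, on chr7:155070074-155070323 (plus strand), encodes a serotonin receptor. LINC02326, on chr14:29065056-29065305 (minus strand), and LOC124909448, on chr3:151077371-151077620 (minus strand), are not protein-coding.
DOK4: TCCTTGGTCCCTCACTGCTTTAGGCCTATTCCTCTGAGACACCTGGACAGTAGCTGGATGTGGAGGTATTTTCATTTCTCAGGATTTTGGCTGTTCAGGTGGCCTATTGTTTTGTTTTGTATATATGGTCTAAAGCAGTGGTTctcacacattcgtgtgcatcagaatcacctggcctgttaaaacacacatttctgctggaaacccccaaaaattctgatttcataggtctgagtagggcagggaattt
HTR5A: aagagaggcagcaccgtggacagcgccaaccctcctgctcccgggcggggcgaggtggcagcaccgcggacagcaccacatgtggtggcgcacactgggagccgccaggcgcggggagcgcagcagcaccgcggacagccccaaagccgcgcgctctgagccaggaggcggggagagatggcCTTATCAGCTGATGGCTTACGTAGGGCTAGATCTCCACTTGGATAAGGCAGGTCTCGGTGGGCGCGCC
LINC02326: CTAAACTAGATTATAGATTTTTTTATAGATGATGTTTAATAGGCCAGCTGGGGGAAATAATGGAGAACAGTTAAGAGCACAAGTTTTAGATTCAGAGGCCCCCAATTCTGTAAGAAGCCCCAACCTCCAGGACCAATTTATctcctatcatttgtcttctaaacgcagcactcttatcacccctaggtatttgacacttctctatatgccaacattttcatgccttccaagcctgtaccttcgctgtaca
LOC124909448: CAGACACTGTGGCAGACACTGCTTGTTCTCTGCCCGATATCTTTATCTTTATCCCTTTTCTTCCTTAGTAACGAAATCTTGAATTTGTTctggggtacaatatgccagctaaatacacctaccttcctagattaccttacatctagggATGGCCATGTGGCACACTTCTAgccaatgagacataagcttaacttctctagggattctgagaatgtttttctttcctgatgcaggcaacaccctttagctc

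In the DOK4 window 135 of the 250 bases lay under 3 lists at once, those of DMSO, etoposide and mitoxantrone. The deposited values of that recurrent region were 7.43 in DMSO, 12.19 with etoposide, 16.53 with mitoxantrone and 9.17 with p-benzoquinone, with no genistein entry. The HTR5A region straddled the start: 68 of the printed bases lay under at least 2 lists and 51 bases of the whole window under at least 3, of which 1 is among the printed bases and the others lie past the start. Its values were 5.75 in DMSO, 4.06 with etoposide, 13.62 with genistein and 10.69 with mitoxantrone. In the LINC02326 window 112 bases lay under 3 lists, with values of 2.54 in DMSO, 66.11 with genistein, 11.99 with mitoxantrone and 3.86 with p-benzoquinone. Values of different lists are not taken to share a scale. The LOC124909448 region enclosed the whole window, with 45 bases under 3 lists. The other 7 windows belonged to BTBD19, RSF1-IT1, LINC01353, NUFIP2, IGF2BP2, OR10J5 and EZH2, and at most 2 lists shared a base in any of them. For IGF2BP2 and EZH2 the RefSeq start used lies inside the gene as the gene table draws it.

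The windows that recurrent regions touched were less rich in G and C than most. The median GC content of the 11 was 44%, from 26.4% in RSF1-IT1 to 79.6% in EZH2. It was 52% in the 6477 windows touched by any merged region and 58.4% in all 33725 windows. GC content and letters were taken over all 250 bases before the start, whether or not they lay in the recurrent region. The bases inside it ran from 0 in EZH2 and NUFIP2 to all 250 in IGF2BP2 and LOC124909448, with 64 in RSF1-IT1. On both strands of the 250 bases, the letters TATAAA occurred in 3 of 11 windows, against 12.8% of windows touched by any merged region and 10.7% of all windows. GGGCGG occurred in 3 of 11, or 27.3%, close to the 26.4% of touched windows, against 42.7% of all. CCAAT occurred in 5 of 11, against 35.3% and 31.8%. GATAAG, the core letters bound by GATA factors, was searched after the sequences were seen, and occurred in 2 of 11 windows, HTR5A and LINC02326, against 7.36% of touched windows and 5.60% of all windows. HTR5A had it 2 times, both in the capital stretch. These matches describe letters, not bound sites, and 11 windows are few.

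Most recurrent regions lacked the mitoxantrone or the etoposide entry rather than genistein or p-benzoquinone. The pattern without mitoxantrone was found in 438 recurrent regions (32.8%), that without etoposide in 371 (27.8%), that without p-benzoquinone in 251 (18.8%) and that without genistein in 208 (15.6%). All 5 lists were present in 68 (5.09%). The poison lists missing most often were the 2 shorter ones: etoposide had 173814 autosomal entries and mitoxantrone 193147, against 296907 for DMSO, 347383 for p-benzoquinone and 405718 for genistein. These counts are what the rule selects on and support nothing further. Regions of all 4 poisons without the vehicle numbered 216.

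The recurrent regions were short chains of overlapping entries rather than broad domains. Their median width was 429 bp, with quartiles of 328 and 566 bp, against 152 bp for DMSO regions that no poison list touched. Joining more entries widens a region by construction. The median was 238 bp for DMSO regions with 1 poison list and 333 bp with 2. It was 422.5 bp for regions of all 4 poisons without the vehicle. In 1101 of them 4 entries were joined, in 213 there were 5, and in 22 there were 6 or more. The narrowest was 117 bp, and 19 exceeded 1000 bp. The widest, 8288 bp in KMT2A, stood apart from the next at 1377 bp. In 531 of the 1336 (39.7%) at least 1 base lay under the vehicle and 3 or more poison lists at once, with a median shared stretch of 61 bp and a maximum of 189 bp. In the other 805 the lists were linked through a neighbour and did not all meet. At most 2 lists met over any base in 167 regions, 3 in 637, 4 in 512 and 5 in 20.

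**Figure D1:**
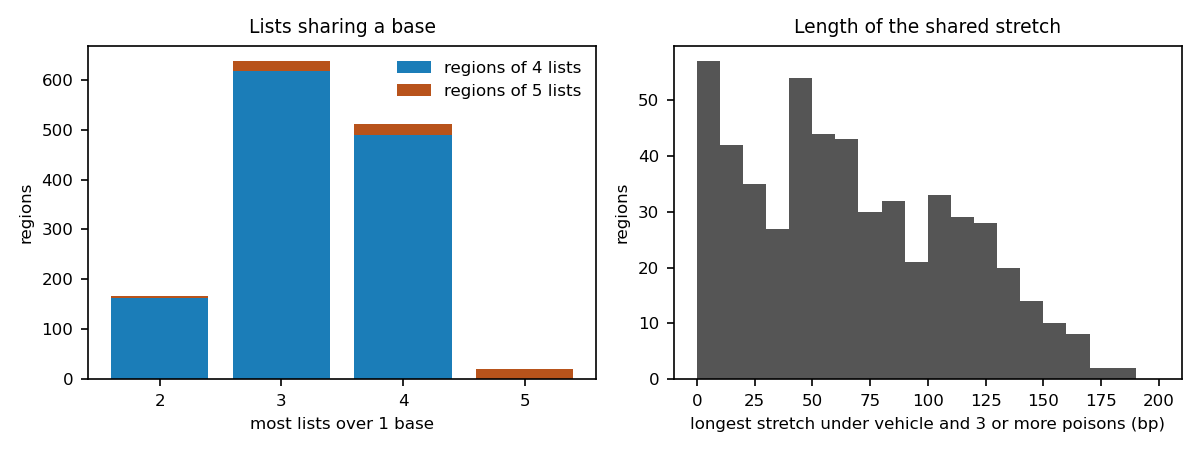
Left, number of recurrent regions (vertical axis) by the largest number of lists over any 1 base (horizontal axis), split into regions of 4 and of 5 lists. Right, length in bp of the longest stretch under the vehicle and 3 or more poisons, in the 531 regions that had one; most regions fell at 3 or 4 lists, and no stretch exceeded 189 bp.

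When 2 lists were both present in a recurrent region, their entries met directly in about the same share whichever lists they were. Entries were joined by overlap, so high shares come by construction, and these are descriptions only. DMSO and etoposide entries shared a base in 790 of 965 recurrent regions holding both (81.9%), over a median of 116 bp. The lowest of the 10 pairs was etoposide with genistein at 78.7% (596 of 757), so the pairs lay within a few percentage points. The shortest overlap on which a region's chain depended had a median of 68.5 bp. It was 1 to 10 bp in 120 regions, among them 23 held by a single base, and 100 bp or more in 433. Just outside the rule were 10819 regions of vehicle and 2 poisons, of which 65 had an entry of another poison within 10 bp and 487 within 100 bp.

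Across 5 lists the place with the longest stretch common to all was in ALK, the receptor tyrosine kinase gene that is fused in anaplastic lymphoma. There the region chr2:29664379-29664626 had 132 bp under all 5 lists. Its values were low, at 2.07 in DMSO, 1.82 with etoposide, 9.47 with genistein, 17.18 with mitoxantrone and 4.78 with p-benzoquinone. The etoposide value was at percentile 0.747 of its list. This closely shared position had low ranks in at least 1 list.

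**Figure D2:**
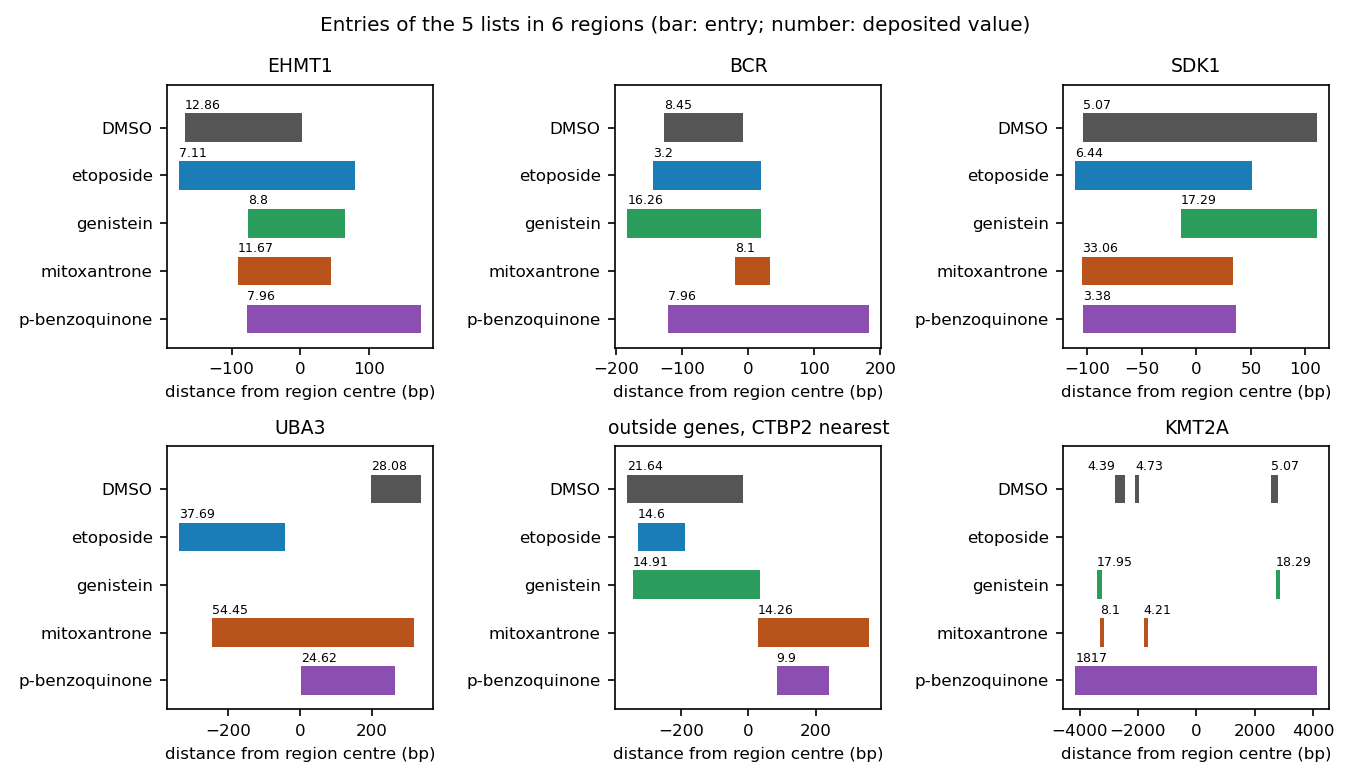
Entries of the 5 lists (rows) in 6 recurrent regions, placed by distance in bp from the region centre, each with its deposited value. In EHMT1, BCR and SDK1 all 5 lists met over a common stretch, in UBA3 and in the region nearest CTBP2 at most 3 lists met, and in KMT2A a single p-benzoquinone entry of 8288 bp spanned all the others.

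Within their own lists, most recurrent regions had values like those of other regions. The medians were higher by a little in DMSO, genistein, mitoxantrone and p-benzoquinone and equal in etoposide. The score of an entry is the authors' own, with no stated unit, and is used here only to rank regions inside 1 list. Medians in recurrent against all merged regions were 6.42 against 6.21 in DMSO, 7.79 against 7.79 with etoposide and 13.98 against 12.91 with genistein. They were 14.7 against 13.3 with mitoxantrone and 5.31 against 5 with p-benzoquinone. Values at or above the 90th percentile of the DMSO list were held by 152 of 1336 recurrent regions, or 11.4% (exact 95% interval 9.72 to 13.2), beside 10.1% of all merged regions. At the same percentile of the other lists the shares were 12% for etoposide (10.04 to 14.2, beside 10.1%), 12.5% for genistein (10.6 to 14.6, beside 10%), 13.3% for mitoxantrone (11.1 to 15.6, beside 10%) and 13.3% for p-benzoquinone (11.3 to 15.4, beside 10%). The intervals for DMSO and etoposide include the share of all merged regions. With the mean of a region's values in place of the highest, the shares were 10.03% for DMSO, 11.3% for etoposide and 11.5% for genistein. They were 13.1% for mitoxantrone and 11.7% for p-benzoquinone. Each was lower than with the highest value. No interval or share of all merged regions is given for the mean, so no excess is read from these shares. All intervals cover counting error only. The presence of an entry already depends on its value, so these shares are descriptions. Entries were also a little wider, 168 bp at the median in DMSO against 153 bp, and the part of width in this was not tested.

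**Figure D3:**
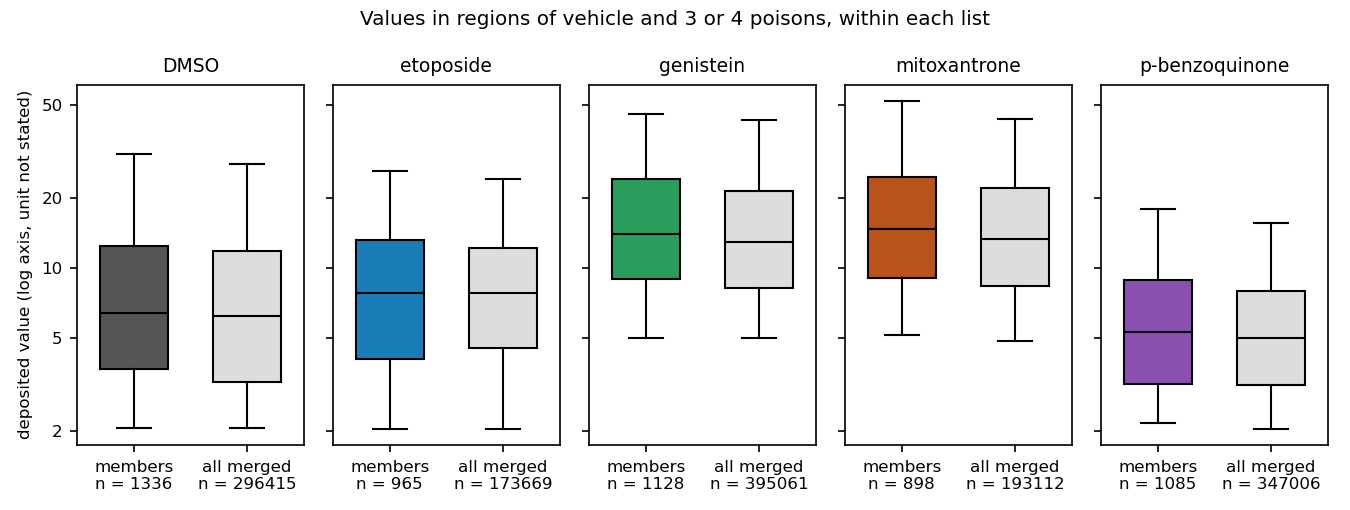
Deposited value (vertical log axis, unit not stated) in recurrent regions (coloured) and in all merged regions holding the list (grey), for each list; boxes show quartiles and median, whiskers the 5th and 95th percentiles. The 2 boxes overlap almost fully in every list.

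Values in 1 list were at most weakly related to values in another. Of the 1336 recurrent regions, 799 reached the 90th percentile of no list, 414 of 1, 112 of 2, 10 of 3 and 1 of 4 or more. Only about 10% of the regions of a list reach it by definition, so low counts for several lists are no test of this. Across recurrent regions the Spearman correlation of DMSO values with etoposide values was 0.052 (965 regions), with genistein 0.020 (1128), with mitoxantrone -0.041 (898) and with p-benzoquinone -0.016 (1085). These are correlations across regions that share libraries, given without a test. Over all merged regions holding both lists they were 0.071, 0.014, 0.0081 and 0.0031. Between poison lists the correlations in recurrent regions ran from -0.0097 for etoposide with mitoxantrone to 0.067 for genistein with p-benzoquinone. Over all merged regions the highest was 0.125, for genistein with mitoxantrone, which was -0.00044 in the 690 recurrent regions holding both. Titles of the genistein and mitoxantrone libraries carry the mark 4, those of p-benzoquinone carry K562, and DMSO and etoposide have libraries of both kinds. What the marks mean is not stated, and their part in these correlations was not tested.

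To name regions, each was given a floor, the lowest percentile its value reached in any list it held. The median floor was 17.1; as the lowest of 4 or 5 percentiles it lies well below 50 by construction, and it serves here only to order regions. The floor was 50 or more in 114 regions and under 5 in 222. The highest floor, 94.9, was in UBA3, which encodes the catalytic subunit of the NEDD8-activating enzyme. That region, chr3:69072544-69073217, had values of 28.08 in DMSO, 37.69 with etoposide, 54.45 with mitoxantrone and 24.62 with p-benzoquinone, and no genistein entry. It also had an input signal of 2.84 in the mitoxantrone list, where the median over recurrent regions was 0.23; whether input has a part in its rank was not tested.

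The other leading regions of 4 lists were in genes of varied function. One was in PRLR, the prolactin receptor gene, at chr5:35063250-35063919. Its values were 79.83 in DMSO, 15.61 with etoposide, 43.76 with genistein and 12.30 with p-benzoquinone, and 160 bp lay under all 4 lists. A region of BRD9, a bromodomain subunit of a SWI/SNF remodelling complex, at chr5:870404-870839, had 36.52 in DMSO, 16.28 with etoposide, 35.00 with mitoxantrone and 16.43 with p-benzoquinone. In PRRC2B (chr9:131438824-131439521) the values were 31.47 in DMSO, 38.64 with genistein, 30.15 with mitoxantrone and 21.23 with p-benzoquinone. These 2 regions were chains, with at most 3 lists over any base.

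CWF19L2, at chr11:107451617-107452163, had 179 bp under all 4 lists it held. Its values were 15.56 in DMSO, 20.36 with etoposide, 33.71 with genistein and 45.05 with mitoxantrone. TNIK, a kinase gene of the Wnt pathway, had 16.57 in DMSO, 62.69 with genistein, 23.98 with mitoxantrone and 9.42 with p-benzoquinone at chr3:171182606-171182967. Outside protein-coding genes the leading regions were nearest AP4E1, ATP11B, RORA, CCER1, HEY2 and CTNNBL1. The one beyond HEY2, a Notch target gene, at chr6:125681823-125682358, lay in the noncoding genes HEY2-AS1 and LINC02523. Its values were 33.49 in DMSO, 17.65 with etoposide, 55.74 with mitoxantrone and 11.83 with p-benzoquinone. Apart from UBA3, the leading 4-list regions with a mitoxantrone entry had input signals from 0.47 in TNIK to 1.65 in CWF19L2. The median over recurrent regions was 0.23, and the part of input in these ranks was not tested.

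The 68 regions of all 5 lists had a median floor of 11.5, and 2 reached 50; a floor over 5 lists lies lower by construction than one over 4. Their median values were 6.76 in DMSO against 6.42 in the regions of 4 lists, 7.11 against 7.8 with etoposide and 13.99 against 14.1 with genistein. They were 16.0 against 14.6 with mitoxantrone and 6.32 against 5.31 with p-benzoquinone. All 5 lists met over a base in 20 of them, over a median of 52 bp. A protein-coding gene was touched by 37. Of the 12 with the highest floor, 6 were in the genes WWOX, UPP2, PIAS2, STRIP2, SDK1 and EHMT1, and 6 were outside genes, among them those nearest CTBP2, PLD5, IRX1, BTG2 and EMSY.

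Among these 12, all 5 lists met over a base in EHMT1, SDK1 and the region nearest PLD5. In EHMT1, a histone H3 lysine methyltransferase gene, 78 bp lay under all 5 lists, with values of 12.86 in DMSO, 7.11 with etoposide, 8.80 with genistein, 11.67 with mitoxantrone and 7.96 with p-benzoquinone. In SDK1, a cell adhesion gene, a region of only 222 bp held all 5 lists with 48 bp in common. Its values were 5.07 in DMSO, 6.44 with etoposide, 17.29 with genistein, 33.06 with mitoxantrone and 3.38 with p-benzoquinone. The region nearest PLD5, chr1:242784810-242785295, had 46 bp in common and no input signal under its mitoxantrone entry. Its values were 8.99, 9.16, 13.22, 17.17 and 7 in the same order. PIAS2, a SUMO ligase gene, had 6.76, 19.70, 9.81, 25.28 and 18.82, but at most 3 lists met there.

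Recurrent regions had more often been joined from several values within the vehicle list itself. Some entries carry several scores and were read as joined from several calls, a measure that the rule did not use; whether those calls come from different libraries is not stated. Of the 1336 recurrent regions 105 had such a DMSO entry, or 7.86% (exact 95% interval 6.47 to 9.43), beside 2.46% of all merged regions with a DMSO entry. By number of poison lists the share was 1.98% with 0 (1.92 to 2.03), 3.65% with 1 (3.51 to 3.81) and 5.07% with 2 (4.66 to 5.50). It was 7.97% with 3 (6.53 to 9.59) and 5.88% with 4 (1.63 to 14.4), the last on 4 of 68 regions. Joined entries are wider and wide entries overlap more, so the same share was taken within widths of the DMSO entry. Below 150 bp it was 1.42% (0.522 to 3.06) against 0.382%, from 150 to below 250 bp 4.80% (3.26 to 6.78) against 2.59%, and from 250 to below 400 bp 22.4% (16.8 to 28.9) against 11.6%. From 400 bp up it was 27.2% (18.4 to 37.4) against 15.2%.

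In the etoposide and p-benzoquinone lists the share was also above that of all merged regions. Etoposide entries with several values were found in 30 of 965 recurrent regions, 3.11% (2.11 to 4.41) beside 1.01%. For p-benzoquinone they were found in 53 of 1085, 4.88% (3.68 to 6.34) beside 1.63%. The genistein list was deposited with overlapping entries unjoined, and 105 of 1128 recurrent regions held 2 or more genistein entries, 9.31% (7.68 to 11.2) beside 2.69%. This counts entries anywhere in the merged region, so longer chains hold more by construction, and it is not the same measure as an entry with several values. The mitoxantrone list comes from 1 library and has no such entries. In regions of the vehicle and 2 poisons the shares were 2.62% in etoposide (2.17 to 3.13), 4.62% in p-benzoquinone (4.12 to 5.16) and 6.06% for genistein (5.51 to 6.66). For the 216 regions of all 4 poisons without vehicle they were 2.31% (0.756 to 5.32), 3.70% (1.61 to 7.17) and 7.87% (4.65 to 12.3). The differences were not tested.

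**Figure D4:**
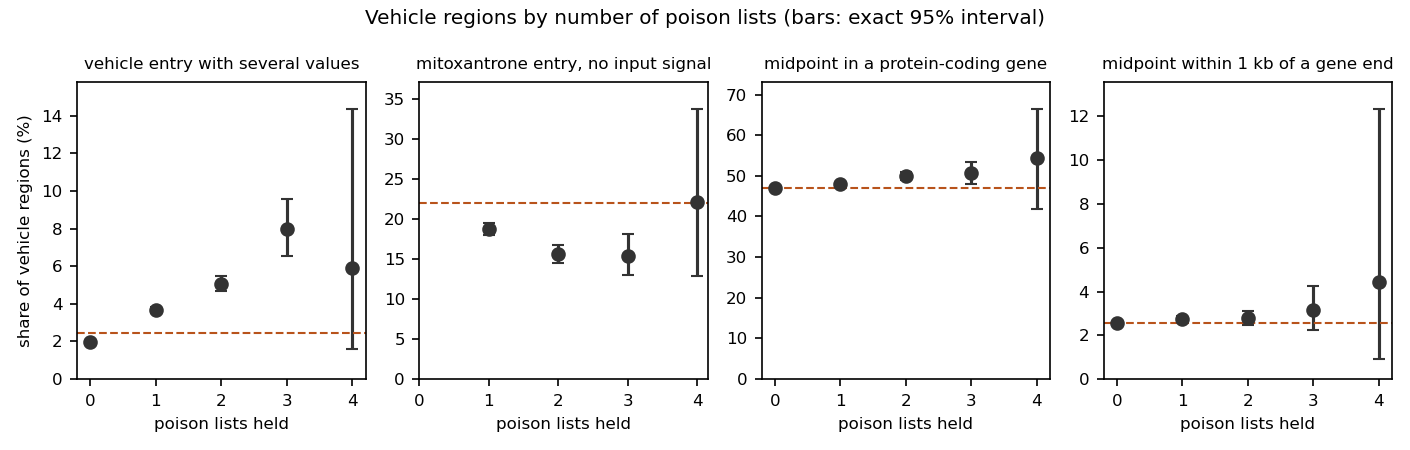
Share in percent (vertical axis) of DMSO-holding merged regions with each property, by number of poison lists in the region (horizontal axis), with exact 95% intervals; the dashed line is the share over all merged regions. From 0 to 3 poisons the share with several DMSO values went from 1.98% to 7.97% and the share with a midpoint in a protein-coding gene from 47.1% to 50.7%.

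The signal of input DNA, which the rule did not use directly, was deposited only beside mitoxantrone entries. Of 898 recurrent regions with a mitoxantrone entry 143 had no input signal, or 15.9% (exact 95% interval 13.6 to 18.5), beside 22% of all merged regions with one. The share was 23.1% in regions of the mitoxantrone list alone, 19.2% with 2 lists, 16.0% with 3, 15.3% with 4 and 22.1% with all 5, the last on 68 regions. Among mitoxantrone entries of 150 to 250 bp it was 15.6% in recurrent regions and 20.3% in all. With only entries of value 4 or more in every list it was 20.8% (438 regions) beside 22.3%. That minimum leaves out few genistein or mitoxantrone entries, while the first quartiles of DMSO and p-benzoquinone, 3.24 and 3.14, lie below it. Where input was above 0, the deposited log2 of treated over input was 4.98 at the median in 754 recurrent regions, beside 4.82 over all. It ran from 4.02 in WWOX to 8.22. Whether listing required a minimum over input is not stated in the sources used here. Presence in the mitoxantrone list may thus already depend on input, and these input values are descriptions.

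A little over the genome-wide share of recurrent regions lay in protein-coding genes. A gene body was touched by 683 of 1336, or 51.1% (exact 95% interval 48.4 to 53.8), beside 47.2% of all merged regions. By midpoint, which leaves width out, it was 50.9% (48.2 to 53.6) beside 47.1%. The midpoint share was 47.1% with 0 poison lists (46.9 to 47.3), 47.9% with 1 (47.6 to 48.3), 50.0% with 2 (49.1 to 51.0) and 50.7% with 3 (47.9 to 53.5). Regions of all 4 poisons without the vehicle were at 50.0% (43.1 to 56.9). Neighbouring regions share their surroundings, so the intervals are narrower than the true error. A lncRNA gene was touched by 15.4% (13.5 to 17.5) beside 16.7%, and no gene of any kind by 36.2% (33.6 to 38.9) beside 38.8%. Exons and introns were not used here, since the gene table gives gene bodies only.

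Gene ends, the stretches within 1 kb of either end of a protein-coding gene, were touched by 50 recurrent regions, 3.74% (2.79 to 4.9) beside 2.77%. By midpoint it was 43, or 3.22% (2.34 to 4.31) beside 2.54%, an interval that includes the value for all regions. With 5 kb it was 13.4% (11.6 to 15.3) beside 11%. A midpoint lay near an end of BTBD19 (559 bp away, outside the gene), KCNB2, a potassium channel gene (839 bp), and DCUN1D5, a neddylation cofactor gene (202 bp).

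A total of 643 protein-coding genes held a recurrent region, 3.36% of 19122, and 47 held at least 2. Long genes offer more places, and the genes with a recurrent region had a median length of 132 kb against 24.5 kb for all. Counted over pairs of a region and a gene it touched, the genes were not longer: the median length was 146 kb for recurrent regions and 179 kb for all merged regions. Genes over 500 kb took 17.8% and 20.6% of them. The gene with the most recurrent regions was ASIC2, an acid-sensing ion channel gene of 1144 kb on chromosome 17, with 5 of its 718 merged regions. They also made up all 5 in the megabase from 33000001 to 34000000, the most in any 1 Mb bin beside 5 on chromosome 5 at 15000001 to 16000000 around FBXL7.

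The 5 ASIC2 regions differed in which list gave them a high rank. At chr17:33609033-33609257 the DMSO value of 42.96 was at percentile 98.6 of its list and the etoposide value of 2.05 at percentile 4.17, beside 18.15 with mitoxantrone and 13.53 with p-benzoquinone. At chr17:33025328-33025699 mitoxantrone, at 53.16, was at percentile 97.4, beside 5.32 in DMSO, 19.33 with etoposide and 5.79 with p-benzoquinone. The input signal there was 2.84, as high as in UBA3, and its part in this rank was not tested. At chr17:33814716-33815498 all 5 lists were present, with 16.91 in DMSO, 3.44 with etoposide, 33.21 with genistein, 15.56 with mitoxantrone and 7.97 with p-benzoquinone. The floors of the 5 ran from 2.39 to 54.3.

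Next came 8 genes with 3 recurrent regions each: TNIK, the delta-catenin gene CTNND2, the RNA-binding protein gene MSI2, ARHGAP22, the bicarbonate transporter gene SLC4A4, WWOX, SDK1 and the F-box gene FBXL7. They held 155 (ARHGAP22) to 628 (WWOX) merged regions each. OPCML, with 2 and a floor of 70.7, completes the 10 genes that the naming rule takes. In ARHGAP22, a GTPase-activating protein gene, 161 bp lay under 4 lists at chr10:48517147-48517561. There mitoxantrone had 65.49, with an input signal of 1.89, DMSO 12.86, genistein 8.46 and p-benzoquinone 5.78.

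Leukaemia translocation genes held 6 recurrent regions in 5 of 40 genes, beside 3.36% of all protein-coding genes. Per 1000 merged regions in the genes this was 1.86 (exact 95% interval 0.681 to 4.03) beside 1.17 (1.09 to 1.26) over all protein-coding genes, an interval that includes the general value. Among them ALK held 2, although the fusion named above for it is in lymphoma. KMT2A, AFDN and BCR held 1 each. In BCR, part of the fusion that drives K562, the region chr22:23262746-23263112 held all 5 lists, and all 5 met over a base. Its values were 8.45 in DMSO, 3.2 with etoposide, 16.26 with genistein, 8.10 with mitoxantrone and 7.96 with p-benzoquinone. It was 1 of 28 merged regions in the gene. BCR is known to be amplified in K562, and the part of copy number in these entries was not tested.

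KMT2A, the histone methyltransferase gene rearranged in therapy-related leukaemia, was unlike the other recurrent regions. Its region, chr11:118505952-118514239, was 1 p-benzoquinone entry of 8288 bp with a value of 1816.82, the highest and widest of that list. The entry enclosed 3 DMSO entries of 4.39, 4.73 and 5.07, 2 genistein entries of 17.95 and 18.29 and 2 mitoxantrone entries of 8.10 and 4.21. No etoposide entry lay there. The mitoxantrone entries had input signals of 0 and 0.23. At most 3 lists met over a base, so the region satisfied the rule through the width of 1 entry. KMT2A also held the p-benzoquinone entries ranked 2 and 4 by value, with 221.47 over 2196 bp and 126.99 over 1002 bp, and only 2 entries of that list exceeded 2000 bp. In the whole gene p-benzoquinone entries covered 16185 bases, against 1987 in DMSO, 1004 with etoposide, 3562 with genistein and 2192 with mitoxantrone. Whether 1 or both p-benzoquinone libraries hold these entries was not tested.

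Common fragile site genes, very long genes prone to breaks under replication stress, held 17 recurrent regions in 13 of 24 genes. Per 1000 merged regions this was 1.1 (0.641 to 1.76), beside 1.17 over all protein-coding genes. Among them WWOX held 3, DAB1 and CNTNAP2 held 2 each, and LRP1B, DLG2, CTNNA3, RBFOX1, NAALADL2, PDE4D, DPYD, ESRRG and RORA held 1 each. The WWOX region of all 5 lists, chr16:79115163-79115592, had 5.74 in DMSO, 6.44 with etoposide, 19.31 with genistein, 19.11 with mitoxantrone and 7 with p-benzoquinone. Another in WWOX had the DMSO value 88.33 beside 2.70 with etoposide, 13.98 with genistein and 3.85 with p-benzoquinone. The LRP1B region also held all 5 lists, with 8.11, 10.18, 9.68, 19.44 and 2.65 in the same order.

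Other fixed groups held few in number, and the rate over all protein-coding genes was 1.17 per 1000 merged regions. Topoisomerase and double-strand break repair genes held 2 in 28 genes, in TP53BP1 and in RBBP8, which encodes the end-resection factor CtIP; per 1000 merged regions this was 1.91 (0.231 to 6.88). RBBP8 held all 5 lists, with 2.54 in DMSO, 8.47 with etoposide, 22.69 with genistein, 12.63 with mitoxantrone and 8.45 with p-benzoquinone. Erythroid genes active in K562 held 1 in 22 autosomal genes, or 2.92 per 1000 merged regions (0.074 to 16.2). It was in SLC25A37, the mitochondrial iron importer gene, with 11.49 in DMSO, 18.66 with etoposide, 9.48 with genistein and 8.20 with p-benzoquinone. T-cell and B-cell marker genes, of another lineage, held 0 in 20 genes and 650 merged regions, where the interval allows up to 5.66 per 1000. Cohesin and CTCF genes held 1 in 11 autosomal genes, in PDS5B, or 1.82 per 1000 merged regions (0.0461 to 10.1). At these numbers no group could be told from the general rate.

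Along the chromosomes recurrent regions were spread thinly. Per 1000 merged regions there were 1.08 overall (exact 95% interval 1.02 to 1.14). The highest value was 1.59 on chromosome 21 (1.04 to 2.33, 26 regions), and the lowest was 0.687 on chromosome 13 (0.453 to 0.999, 27 regions). Chromosome 7, with 99, was at 1.41 (1.14 to 1.71), and chromosome 3, with 72, at 0.803 (0.628 to 1.01). Only chromosomes 3, 7 and 13 of the 22 had intervals that left out 1.08. The median distance to the next recurrent region was 1211 kb, the shortest 438 bp, and 16 regions (1.20%) had another within 10 kb. Of 2723 bins of 1 Mb with any region, 998 held a recurrent region: 731 held 1, 208 held 2, 49 held 3 and 10 held 4 or more.

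**Figure D5:**
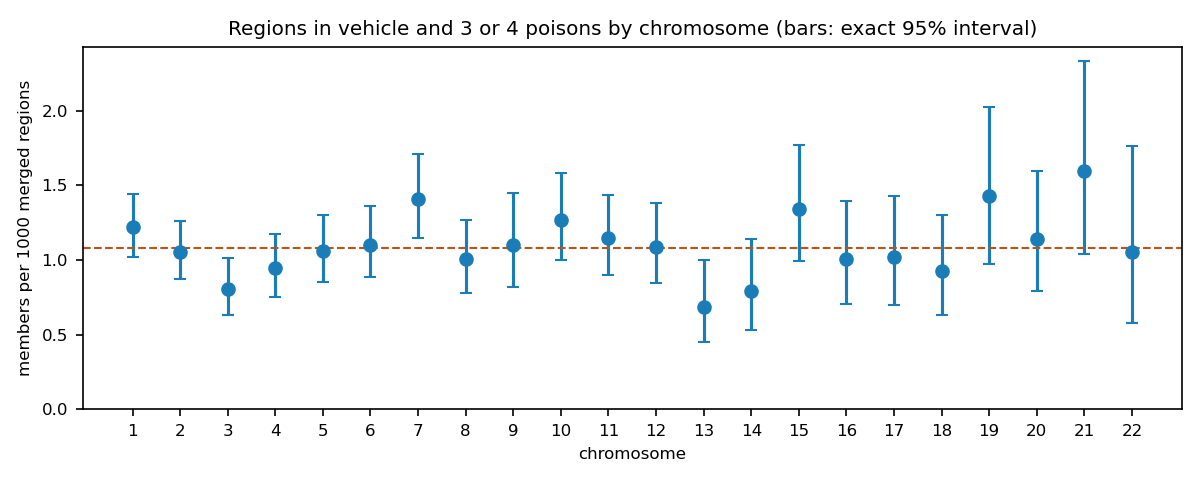
Recurrent regions per 1000 merged regions (vertical axis) on each autosome (horizontal axis), with exact 95% intervals; the dashed line is the value for all autosomes, 1.08. Chromosome 21 was highest at 1.59 and chromosome 13 lowest at 0.687.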

How the data were processed

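Immunocaptured TOP2A-bound DNA was sequenced per the labels' protocols, and the submitters' processing notes name Bowtie2 2.1.0, SAMtools 0.1.19 and hg38. The caller of the regions is not given in the sources used here. Per treatment, the authors deposited 1 list with a start, an end and a score per region. The mitoxantrone list also has a deposited input signal, a deposited log2 ratio and, unused here, a deposited p-value and an unexplained whole number. Starts were counted from 0 and are printed from 1. The mitoxantrone list was assigned to the only mitoxantrone library from its name.

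Entries on chromosomes 1 to 22 were merged at 1 bp of overlap, and bedtools 2.31.1 gave the same 1234830 regions. A region's value in a list is its highest. Genes (19122 protein-coding) were those of RefSeq, GRCh38.p14. Shares have exact Clopper-Pearson 95% intervals, which cover counting error only, since amplified reads with no molecular identifiers can repeat 1 molecule. Named are the 12 regions of 5 lists and the 3 of each 4-list pattern with the highest floor, the 10 genes with most regions, the 10 promoter windows with the highest floor (EZH2 and the other named windows make 11), and genes of the leukaemia and fragile site lists. ALK's stretch, the gene-end examples and the extreme chromosomes were named after their values were seen. The members, lists and rules were chosen with earlier results of these data known. A few regions that the naming rule takes are not reported here. Merging was tested on simulated data. Scripts ran in Python 3.11.15 with scipy 1.17.1, pandas 2.3.3, numpy 2.4.6 and, for figures, matplotlib 3.10.9.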

Additional observations from a re-analysis of the deposited data

Results flagged for a closer look

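Chromosome X lies outside the rule and was not part of the comparisons. Merged the same way, it held 39 regions of vehicle and 3 or 4 poisons among 56467 merged regions, 1 of them in all 5 lists. This was 0.691 per 1000 merged regions (exact 95% interval 0.491 to 0.944), beside 1.08 on chromosomes 1 to 22; the difference was not tested.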

How the results depend on the processing

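Of 36 alternative values 24 stayed close to the reported ones (within the exact interval of a share, or within 1.5 times a count) and 12 moved. The number of recurrent regions, 1336, was 881 with entries joined at 50 bp of overlap, 531 with a base under the vehicle and 3 or more poisons required, and 585 with values of 4 or more. With 1 poison list left out and all 3 others required, which is a stricter rule, it was 432 without etoposide, 267 without genistein, 498 without mitoxantrone and 305 without p-benzoquinone. Joining at 10 bp, chosen after seeing the data, gave 1234. The share with several DMSO values, 7.86%, was 5.46% with the shared base required and 4.94% in DMSO entries of 150 to 250 bp (2.61% of all), the latter chosen after seeing the data. The share without input was 20.8% with values of 4 or more. Gene ends at 5 kb gave 13.4%, and spacing within 100 kb gave 11.6%; both are wider windows by construction. Leaving out a replicate was not possible because the lists pool their libraries. No paired analysis was possible because the lists carry no replicate number.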

Other observations

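Recurrent regions with a midpoint within 1 kb of a gene end included those of ZW10 and CFAP263. ZW10, a kinetochore checkpoint gene, had 7.77 in DMSO, 13.97 with genistein, 19.12 with mitoxantrone and 9.18 with p-benzoquinone, at a floor of 53.7. CFAP263, a cilium gene, had 28.75 in DMSO, 10.85 with etoposide, 13.55 with genistein and 33.39 with mitoxantrone, at a floor of 52.0. Both were picked with their values in view.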
